A study of Mus musculus with 2 samples.

Results

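Bvht (Braveheart, ENSMUSG00000098098) is a long noncoding RNA gene on the plus strand of mouse chromosome 18. Its locus was taken as the peaks that the deposited peak table assigns to Bvht plus every other peak on chromosome 18 between 61.6 and 61.9 Mb, an interval of 300.0 kb. The rule gave 32 of 63316 peaks, of which 8 were assigned to Bvht and 24 to neighbouring genes or to no gene. The locus was selected on its log2 ratios in the same table, since a Bvht peak was already known to be among the lowest ratios measured, so the accessibility values below describe the locus and no test was made on them. ATAC-seq, in which the Tn5 transposase cuts open chromatin and inserts sequencing adapters, had been performed on what the labels give as primary cardiac fibroblasts from mouse heart. Cells of both libraries had received TGF-β (5 ng/ml) over 24 h. The library labelled NC was taken as cells with scrambled siRNA, since the legend of the study names that control, while the label says only NC. The library labelled SiPiezo2 came from cells with siRNA against Piezo2, a mechanosensitive cation channel. There was 1 library per condition. The labels give neither the strain nor the age of the mice, nor how many animals the cells came from. An siRNA acts on the transcript and not on chromatin, so these data hold no check of the knockdown itself. The design text of the series names a knockout of Tet3 by Cre instead of an siRNA, and this difference was not settled.

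Braveheart was described in mouse as a transcript needed for nascent mesoderm to take on the cardiac fate. It acts upstream of Mesp1, a master factor of the cardiovascular lineage, and binds SUZ12, a subunit of the polycomb repressive complex PRC2 that methylates histone H3. Next to it lies Carmn, a noncoding RNA gene on the opposite strand that hosts the microRNA genes Mir143 and Mir145a and is used as a marker of smooth muscle cells. In fibroblasts, TGF-β drives the change to contractile myofibroblasts, which use genes shared with smooth muscle. Accessibility is not expression, and no transcript level was measured here.

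A normalized read density gives the reads per 1000 bp in a window of 2000 bp around the centre of a peak, after a scaling by the authors that centres peaks called in both libraries. A log2 ratio stands for log2((SiPiezo2 + 1)/(NC + 1)) of these densities, so negative values are lower in SiPiezo2, and a peak is called lower or higher here when it is past 1.5-fold. The windows of all peaks held 4615335 reads in NC and 2754046 in SiPiezo2, a ratio of 0.597, with medians of 58 and 36 reads per window. The median log2 ratio of all peaks was -0.13, with quartiles at -0.41 and 0.12. Of all peaks, 14.2% were lower and 3.21% were higher past 1.5-fold. Promoter peaks within 1 kb of a start site were found for 8 of 10 fibroblast markers (not Lum and Thy1) and summed to a density of 455 in NC and 399.9 in SiPiezo2. The same held for 1 of 6 cardiomyocyte markers, 1 of 5 endothelial markers, 2 of 5 smooth muscle and pericyte markers and 0 of 5 macrophage and leukocyte markers. The summed promoter density of the smooth muscle and pericyte markers was 50.7 in NC and 36.7 in SiPiezo2, and the part of such cells in the values below was not tested. With bulk libraries, fewer cells with an open site and a less open site in each cell cannot be told apart.

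Across the 32 peaks of the Bvht locus the density summed to 1378 in NC and 1015 in SiPiezo2. The log2 ratios ran from -2.29 to 0.34 with a median of -0.36 and quartiles at -0.54 and -0.11. Below 0 lay 26 peaks, or 81.2% of the locus, beside 63.7% of all peaks and 65.4% of the rest of chromosome 18. Past 1.5-fold, 7 peaks were lower and 0 were higher, which is 21.9% of the locus beside the 14.2% of all peaks, and the locus was chosen for such a peak. The median density of a locus peak was 35.8 in NC and 28.4 in SiPiezo2, beside 24.5 and 22.1 over all peaks. The decrease was uneven along the locus, and the 4 lowest log2 ratios (peaks 20, 13, 19 and 12) all lay in Bvht or within 4602 bp of its first start site.

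**Figure D1:**
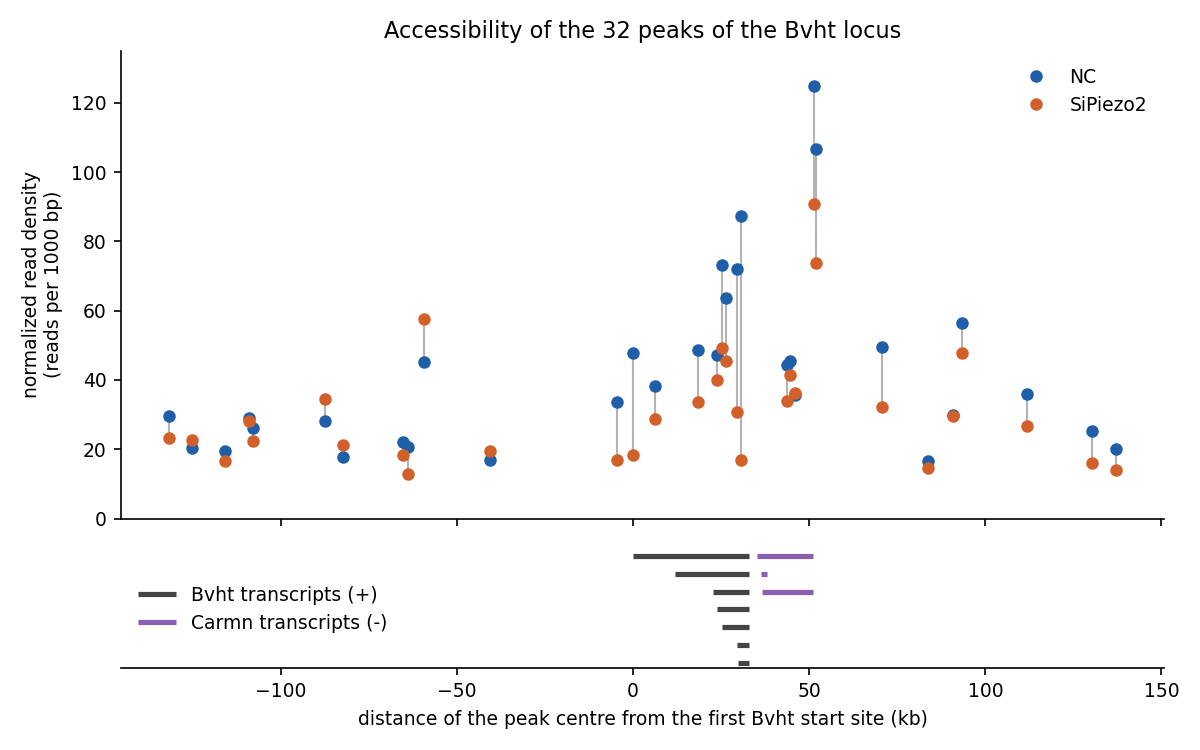
Normalized read density (reads per 1000 bp, vertical axis) of the 32 peaks in NC (blue) and SiPiezo2 (orange) against the distance of the peak centre from the first Bvht start site in kb, with 1 library per condition and a line joining both values of a peak; bars below show the 7 Bvht and 3 Carmn transcripts of the table's annotation. The longest joining lines inside Bvht belong to its last peaks, where the density was 87.3 in NC and 17.0 in SiPiezo2 at the exon 1 peak.

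The table's annotation gives Bvht 7 transcripts on the plus strand. They start at 61747529, 61759455, 61770092, 61771283, 61772687, 61777045 and 61777310 and share an end close to 61780552, and the gene spans 33.0 kb. Positions are those of the table, since its gene coordinates are not those of the mm10 build named in the submitters' processing notes. The 8 Bvht peaks, numbered 13 to 20 along the locus, summed to a density of 478 in NC and 263 in SiPiezo2. This is a log2 ratio of -0.86, from 1210 and 404 reads. With the offset of the authors' scaling the reads gave -0.88, with a 95% exact binomial (Clopper-Pearson) interval from -1.05 to -0.72. The intervals here cover counting error only, and neither library has a replicate. All 8 Bvht peaks lay below 0 and 3 were lower past 1.5-fold, beside 63.7% and 14.2% of all peaks. Of the 8, 7 were called in NC only, a class with a median log2 ratio of -0.23 and 19.1% lower. The locus was chosen on its ratios, so nothing is read from these counts. The share of the locus density that lay in Bvht peaks was 34.7% in NC and 25.9% in SiPiezo2.

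The first start site of Bvht had a pair of low peaks. Peak 12, from 61742724 to 61743131, lies 4602 bp upstream of that start in intergenic sequence and is assigned to no gene, although Bvht is the nearest. Its density was 33.5 in NC and 16.9 in SiPiezo2, from 80 and 27 reads, a log2 ratio of -0.95. Peak 13, from 61747164 to 61747599, covers the first start site and is annotated as promoter. Its density was 47.9 in NC and 18.5 in SiPiezo2, from 117 and 29 reads, a log2 ratio of -1.33. SiPiezo2 thus had 38.6% of the NC density at this promoter. The windows of both peaks stand apart from each other, so they share no reads. The interval of the reads ran from -1.71 to -0.37 at peak 12 and from -2.05 to -0.81 at peak 13.

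The next 5 peaks, inside the longest transcript, differed less. Peak 14, in intron 1 of 2 from 61753565 to 61753873, had densities of 38.2 in NC and 28.6 in SiPiezo2, a log2 ratio of -0.40. Peak 15, also in intron 1, from 61765497 to 61766236, is at 739 bp the widest of the locus and had densities of 48.6 and 33.5, a log2 ratio of -0.52. Peak 16, from 61771106 to 61771431, covers the start of the fourth transcript in the order given above. Its densities were 47.1 in NC and 40.1 in SiPiezo2, and its log2 ratio of -0.23 was the one nearest 0 among the Bvht peaks. Peak 17, from 61772723 to 61773079, just past the start of the fifth transcript, was the only Bvht peak called in both libraries. Its densities were 73.3 in NC and 49.1 in SiPiezo2, a log2 ratio of -0.57, and it was the strongest Bvht peak in SiPiezo2. Peak 18, from 61773736 to 61773985 in intron 1, had densities of 63.6 and 45.4, a log2 ratio of -0.48. None of these 5 peaks was past 1.5-fold in the deposited densities, although peak 17 was with reads at the same total (-0.61), and together they summed to 271 in NC and 197 in SiPiezo2. The windows of peaks 16 and 17 share 367 bp and those of peaks 17 and 18 share 1041 bp, so these 3 values are not separate measurements.

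The last pair of Bvht peaks lies at the starts of its shortest transcripts and had the largest decrease. Peak 19, from 61776812 to 61777177, covers the start at 61777045 and is annotated as promoter. Its density was 72.1 in NC and 30.8 in SiPiezo2, from 184 and 47 reads, a log2 ratio of -1.20. Peak 20, from 61777797 to 61778363, lies 770 bp past the start at 61777310, in exon 1 of 2 of that transcript. Its density was 87.3 in NC and 17.0 in SiPiezo2, from 219 and 26 reads, a log2 ratio of -2.29. The density in SiPiezo2 was thus 19.5% of that in NC. The reads at peak 20 gave -2.41 with an interval from -3.05 to -1.82, and those at peak 19 gave -1.25 with an interval from -1.75 to -0.78. The order of the Bvht peaks turned over at this site, since peak 20 was rank 1 of 8 by density in NC and rank 8 of 8 in SiPiezo2. Within the locus it was rank 3 of 32 in NC and rank 26 of 32 in SiPiezo2. Only 5 of all 63316 peaks had a lower log2 ratio. The centres of peaks 19 and 20 lie 1086 bp apart and their windows share 914 bp, so some reads are counted in both.

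**Figure D2:**
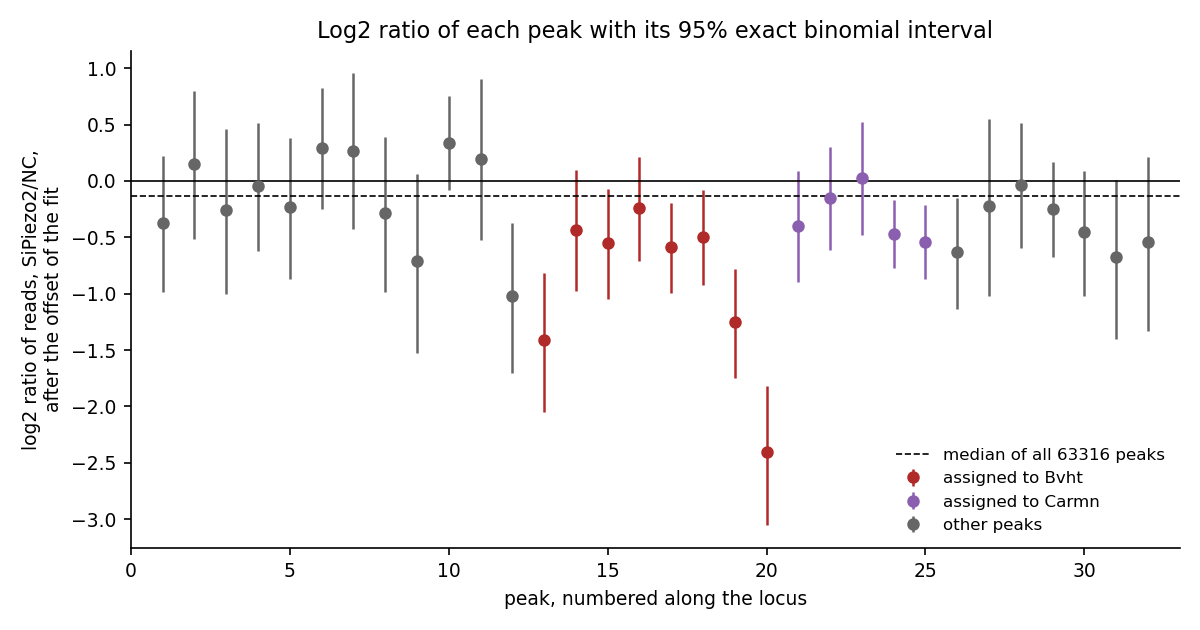
Log2 ratio of reads, SiPiezo2 over NC, after the offset of the authors' scaling (vertical axis) for the 32 peaks in their order along chromosome 18 (horizontal axis), with 95% exact binomial intervals as bars, for counting error only and 1 library per condition. Peak 20 stands lowest at -2.41, peaks 13 and 19 are the next lowest, and the peaks numbered 1 to 11 lie on both sides of 0.

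The counting intervals lay wholly below 0 for 10 of the 32 locus peaks, 6 of them assigned to Bvht, beside 13.8% of all peaks. Counting error is the least that such libraries can vary. Among 21056 peaks called in both libraries with as many reads as the locus peaks, the variance of the log2 ratio was 2.37 times that of counting. With intervals widened to that variance, 6 locus peaks lay wholly below 0, of which 3 were Bvht peaks, beside 4.07% of all peaks. The locus was chosen on these ratios, so nothing is read from the counts. At peak 20 the widened interval ran from -3.31 to -1.50.

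Most of the locus had been called as peaks in NC alone. Of the 32 peaks, 22 were called in NC only, 9 in both libraries and 1 in SiPiezo2 only. Of the Bvht peaks, 7 were called in NC only. This is also the state of most of the table, in which 40553 peaks were called in NC only and 19.1% of these were lower past 1.5-fold. Among the 22 locus peaks of that kind 6 were lower. Of the 9 called in both libraries 1 was lower, beside 5.79% of all such peaks. The SiPiezo2 library had fewer reads in the windows, and the part of this in the calling of peaks was not tested.

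The 12 peaks before Bvht, peak 12 included, summed to 309 in NC and 294 in SiPiezo2, with a median log2 ratio of -0.12, and 2 were lower past 1.5-fold. Without peak 12, the other 11 summed to 275 in NC and 277 in SiPiezo2, with a median of -0.033 and 1 lower peak. The first, peak 1 in intron 1 of Lncbate10, a noncoding RNA gene, had densities of 29.5 in NC and 23.2 in SiPiezo2. Peak 2, downstream of the predicted gene Gm46637, had 20.4 and 22.8. Their log2 ratios were -0.34 and 0.15, on either side of 0. Peaks 3 to 7 lie in introns of Arhgef37. Their densities ran from 17.7 to 28.9 in NC and from 16.5 to 34.7 in SiPiezo2, and their log2 ratios from -0.23 to 0.28. Summed over its 5 peaks, Arhgef37 had 120 in NC and 123 in SiPiezo2, a log2 ratio of 0.033. Peaks 8 and 9 are intergenic, and their windows share 373 bp. Peak 8 had densities of 22.2 and 18.5, a log2 ratio of -0.25. Peak 9, from 61683600 to 61683846, had 20.5 and 12.9, a log2 ratio of -0.64, and was the one lower peak of this stretch, with an interval of the reads from -1.53 to 0.059.

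Csnk1a1, which encodes casein kinase 1 alpha, a negative regulator of Wnt signalling through β-catenin, lies between these peaks and Bvht. Its promoter peak 10, from 61687963 to 61688503, had densities of 45.3 in NC and 57.5 in SiPiezo2. The log2 ratio of 0.34 was the highest of the locus, and the interval of its reads ran from -0.077 to 0.75. It was rank 13 of 32 by density in NC and rank 3 of 32 in SiPiezo2. Peak 11, within the class of promoter peaks beyond 1 kb, had densities of 16.9 and 19.5, a log2 ratio of 0.19. Over both peaks Csnk1a1 had a log2 ratio of 0.30, with an interval of the reads from -0.054 to 0.65.

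Past the end of Bvht, 12 peaks summed to 591 in NC and 457 in SiPiezo2, and 11 of them lay below 0. The first 5 belong to Carmn. Intron peaks 21, 22 and 23, between 61790994 and 61793595, had densities of 44.4, 45.5 and 35.5 in NC and of 34.1, 41.4 and 36.3 in SiPiezo2. Their log2 ratios were -0.37, -0.14 and 0.031, and peak 23 was the one locus peak called in SiPiezo2 only. Promoter peak 24, from 61798517 to 61798979, was the strongest of the locus in both libraries, with densities of 124.9 in NC and 90.9 in SiPiezo2, a log2 ratio of -0.46. Promoter peak 25, from 61799348 to 61799796, was next in both, with densities of 106.6 and 73.9, a log2 ratio of -0.52. The windows of these promoter peaks share 1176 bp, and both intervals of the reads lay below 0, from -0.77 to -0.17 and from -0.87 to -0.21. Summed over 5 peaks, Carmn had 357 in NC and 276 in SiPiezo2, a log2 ratio of -0.37 with an interval of the reads from -0.54 to -0.21. Reads in shared stretches of windows are counted more than once in the sums of both Carmn and Bvht, so these intervals are too narrow, and the difference between the genes was not tested.

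The remaining 7 peaks run to the upper edge of the locus. Intergenic peak 26, from 61817956 to 61818318 and called in both libraries, had densities of 49.4 in NC and 32.2 in SiPiezo2, a log2 ratio of -0.60. Peaks 27, 28 and 29 belong to Pcyox1l, which encodes a protein like prenylcysteine oxidase. Its introns held peaks with log2 ratios of -0.19 and -0.021, and its promoter peak 29 had densities of 56.4 and 47.9, a log2 ratio of -0.23. Peak 30 at the start of 1500015A07Rik, a noncoding RNA gene, had 36.0 and 26.6, a log2 ratio of -0.42. Peaks 31 and 32, in intron 6 of 15 and exon 7 of 19 of Afap1l1, an adaptor that binds actin filaments, were weak. They had densities of 25.2 and 20.0 in NC and of 16.1 and 14.1 in SiPiezo2. Their log2 ratios were -0.62 and -0.48, of which the first was past 1.5-fold. The 7 lower peaks of the locus were therefore peaks 9, 12, 13, 19, 20, 26 and 31. With both libraries at the same total density, or with median-of-ratios scaling, 4 were lower, since peak 9 (-0.55 and -0.50), peak 26 (-0.52 and -0.47) and peak 31 (-0.53 and -0.48) were then within 1.5-fold. With reads at the same total, 7 were lower but not the same ones: peaks 9, 26 and 31 were within 1.5-fold, while peak 17 (-0.61) and the Carmn promoter peaks 24 (-0.64) and 25 (-0.66) were past it. Peaks 12, 13, 19 and 20 were lower under each of these scalings.

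As genes, with densities summed over their peaks, 8 neighbours of Bvht had a peak in the locus and 0 of them were past 1.5-fold. Of all 16934 genes with a peak, 6.6% were lower and 1.54% were higher, with a median log2 ratio of -0.093. The neighbours ranged from -0.57 at Afap1l1 to 0.30 at Csnk1a1. Bvht, at -0.86, was rank 326 from the lowest among all genes with a peak and rank 100 among 8321 genes with a summed NC density of at least 50. Of 974 genes with at least 8 peaks, a cut set at the number of peaks of Bvht itself, it was rank 2. The one below it was Cemip, which encodes a hyaluronan-binding protein, with 11 peaks and a log2 ratio of -0.89. Cemip was named after its value was seen. The locus was selected on its low ratios, so the ranks of Bvht describe that choice and nothing is read from them.

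**Figure D3:**
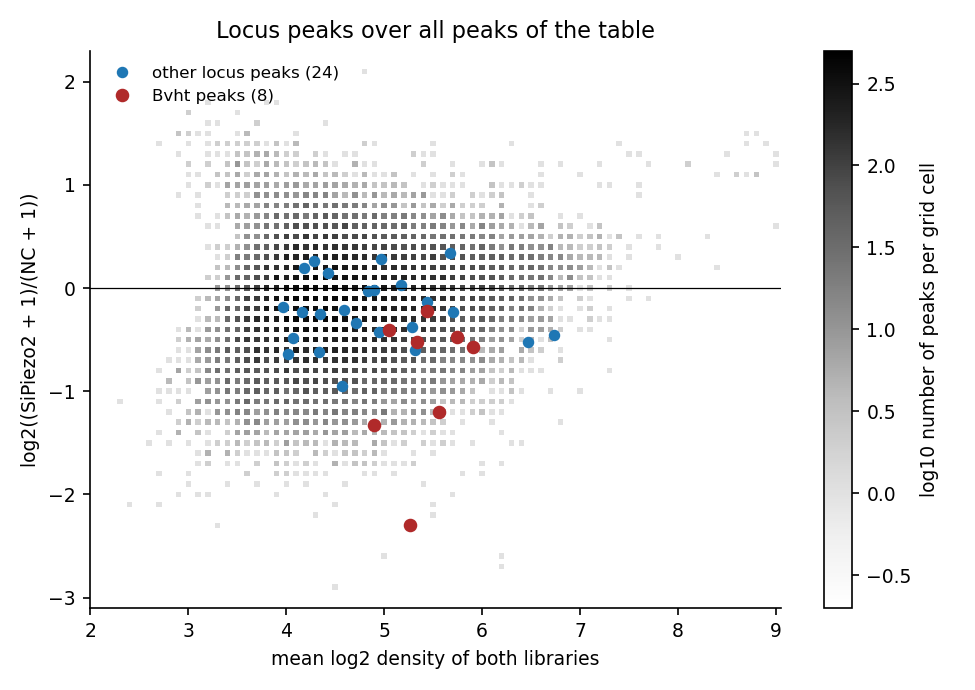
Log2 ratio (vertical axis) against the mean log2 density of both libraries (horizontal axis) for all peaks, as grey cells whose darkness is the log10 number of peaks, with the 8 Bvht peaks in red and the other 24 locus peaks in blue; the 9 peaks with a mean log2 density above 9 are not drawn. All 8 Bvht peaks lie below 0, as do 63.7% of all peaks, and peak 20, at -2.29, lies below nearly all grey cells.

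Other stretches of chromosome 18 gave a measure of how such an interval looks in these libraries. The interval of the same length below the locus held 9 peaks, with a median log2 ratio of -0.37, 0 lower and 1 higher past 1.5-fold. The one above held 16 peaks, with a median of -0.15 and 1 lower. As sums, the log2 ratios of these intervals were -0.18 and -0.19, beside -0.44 for the locus and -0.26 for its 24 peaks outside Bvht. The median of the interval below was thus close to that of the locus, while its lowest log2 ratio was -0.55, beside the -2.29 of peak 20. At the lower edge, the last peak outside, in Ppargc1b, had a log2 ratio of -0.43 and the first inside -0.34. At the upper edge, the last inside had -0.48 and the first outside -0.60. The other 2156 peaks of chromosome 18 had a median of -0.15, and 15.6% of them were lower. An interval of the same length centred on Acta2, the gene of smooth muscle α-actin and the usual myofibroblast marker, held 15 peaks. Of these 6 were lower, the median was -0.46 and the lowest was -2.87. That is also the lowest log2 ratio of all 63316 peaks, and Acta2 was rank 2 from the lowest among all 16934 genes. The Acta2 interval is thus an extreme of these ratios and no measure of a usual stretch. By sums that interval had -0.89, beside -0.44 for the whole Bvht locus. As genes, Acta2 had -1.91 and Bvht -0.86.

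The genes with which Braveheart is known to act lay between -0.43 and 0.43. Of 18 genes of its cardiac lineage network, 12 had a peak, 0 were lower and 0 were higher past 1.5-fold, beside 6.6% and 1.54% of all genes. For 12 genes these counts are near the background. Their median log2 ratio was 0.073, beside -0.093 for all genes, and it was -0.032 beside -0.025 with promoter peaks alone, which 7 of the members have. The genes Mesp2, Eomes, T, Hand1, Nkx2-5 and Isl1 had no peak. Mesp1, the factor downstream of Braveheart, had 1 weak peak with densities of 18.1 in NC and 20.2 in SiPiezo2, a log2 ratio of 0.15. The highest were Hand2, a heart field transcription factor, at 0.43, and Gata4, a cardiac zinc finger factor with 8 peaks, at 0.23. The lowest were Mef2c, a muscle transcription factor, at -0.43, and the PRC2 subunits Ezh2 at -0.25 and Suz12 at -0.10.

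The microRNAs miR-143 and miR-145 of the Carmn transcript are known to act on cytoskeletal and growth genes in smooth muscle. Of 16 genes known as their targets, 15 had a peak (not Sox2), 0 were lower and 1 was higher, beside 6.6% and 1.54% of all genes, which is near the background for so few genes. The median log2 ratio was -0.14 beside -0.093 for all genes, and it was 0.23 beside -0.025 with promoter peaks alone, which 7 of the members have. The higher gene was Ace, which encodes the angiotensin-converting enzyme, at 0.63, from 42 and 46 reads in a single peak. Klf5, a factor of smooth muscle growth, and Limk1, a kinase that acts on cofilin, followed at 0.42 and 0.28. The lowest were Fscn1, which bundles actin, at -0.49, the ETS factor Fli1 at -0.32, and Mapk7, the kinase ERK5, at -0.30.

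Smooth muscle genes driven by SRF, a transcription factor that responds to actin, and its cofactor myocardin made up the last list. Of 17 genes, 15 had a peak (not Des and Actg2), 4 were lower past 1.5-fold and 0 were higher, beside 6.6% and 1.54% of all genes, with a median log2 ratio of -0.42 beside -0.093 for all genes. The median was -0.20 over the 10 members with promoter peaks when those peaks alone were used, beside -0.025 for all genes, and -0.28 beside 0.043 with median-of-ratios scaling. Acta2 was the lowest at -1.91, followed by Myl9, a myosin light chain, at -1.08, Tagln, the gene of transgelin, at -0.98 and the actin nucleator gene Lmod1 at -0.70. At the other end, Vcl, which encodes vinculin, had 0.012, the calponin gene Cnn1 0.042, and Myocd, the gene of myocardin itself, 0.13. At -0.86, Bvht lies between Tagln and Lmod1 in this order.

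**Figure D4:**
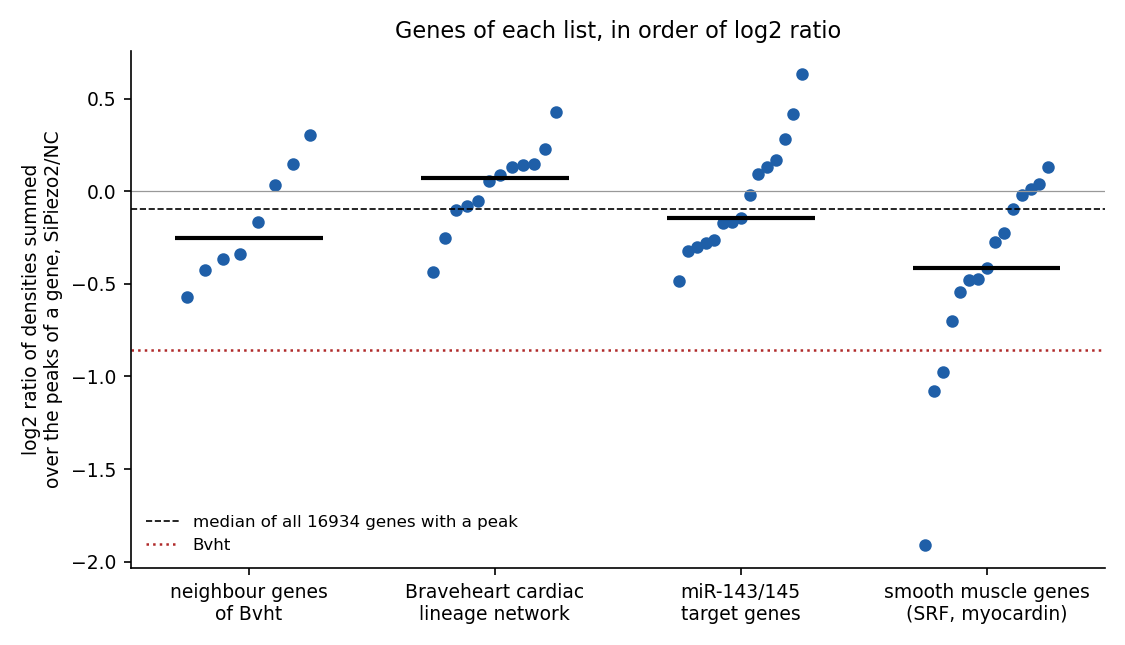
Log2 ratio of the densities summed over the peaks of a gene (vertical axis) for the 8 neighbour genes and the members with a peak of the 3 gene lists, each point a gene and each bar the median of its list; the dashed line is the median of all 16934 genes with a peak (-0.093) and the dotted line is Bvht (-0.86). Only Acta2, Myl9 and Tagln of the genes drawn lie below the line of Bvht.

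Among genes with a summed NC density of at least 50, those whose log2 ratio lay nearest to that of Bvht over these 2 libraries were Gm11959 at -0.86, Fn1 at -0.87, Slc44a3 at -0.87, Lhx9 at -0.87 and Rnf114 at -0.85. Each was within 0.01 of Bvht. Of these, Fn1, the gene of the matrix protein fibronectin, had the most reads, with densities of 268 in NC and 147 in SiPiezo2 over 4 peaks. A likeness over 2 libraries orders genes by a single ratio and says nothing more of them.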

How the data were processed

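ATAC-seq libraries of TGF-β-treated primary mouse cardiac fibroblasts were assigned to NC and SiPiezo2 by their labels. The labels name the Vazyme kit of the study's reagent list, while the ATAC-seq paragraph of its methods names another and describes minced tissue, a difference that was not settled. The methods name bwa, Picard and MACS2, and the submitters' processing notes name BWA 0.7.12 and mm10. The table's chromosome 18 gene models are not those of GRCm38: 88 of 928 transcripts had the same ends. No sequence was therefore read from that genome, and sequences of this locus are not reported here.

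The authors deposited 1 table of peaks with a normalized read density (signal) per library, and with a log2 column that holds the mean log2 density of both libraries. Its columns of log2 fold changes and p-values compare the libraries and were not used. Whole reads were recovered from the densities and the mean log2 density for 100% of the peaks, where a value counted as whole within 0.05 reads or 0.1% of the reads, whichever was larger, with an intercept of -0.25 and a slope of 0.17 of the authors' linear fit, and 1 read added per window. The recovery was tested on simulated data.

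With 1 library per condition, no test was made. Log2 ratios used a pseudocount of 1, genes were given the sum of their peaks, and intervals were 95% exact binomial. Genes named were those of the locus, the 3 lowest and 3 highest of each list, and the 5 nearest to Bvht. Where a further gene is named it was chosen after its value was seen. The locus, its members and the gene lists were chosen with earlier results of these data known. Alternatives were a pseudocount of 0.1, other scalings, a fold of 2, a density minimum of 10, promoter peaks alone and leaving out the strongest Bvht peak or all Bvht peaks. The use of recovered reads, separate windows and leaving out the exon 1 peak were chosen after seeing the data. The software was Python 3.11.15 with scipy 1.17.1, matplotlib 3.10.9, pandas 2.3.3 and numpy 2.4.6.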

Additional observations from a re-analysis of the deposited data

How the results depend on the processing

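The Bvht sum stayed below 0 and past 1.5-fold in every alternative run. It was -0.67 without the exon 1 peak (peak 20) and -0.69 with separate windows only, which also drops that peak. From reads without scaling it was -1.58, which leaves the difference in reads within windows in the ratio. Both runs without peak 20 keep peak 19, whose window shares 914 bp with that of peak 20. No run left out both peaks, which together held a density of 159 in NC and 47.8 in SiPiezo2. Whether the Bvht sum stays past 1.5-fold without this pair was therefore not tested. The locus median stayed below 0 and was -0.22 with median-of-ratios scaling, -0.23 with reads at the same total and -0.97 from reads without scaling. The number of lower locus peaks was 7 at first, 4 with both libraries at the same total density, 4 with median-of-ratios scaling, 4 without the Bvht peaks, 7 with reads at the same total (4 of them shared with the first 7), 3 at a fold of 2 and 27 from reads without scaling, while 0 were higher in each of these. The scaling moved the median of all peaks from -0.13 to -0.050 at the same total density and to 0.037 with reads at the same total. Lower peaks were 81.6% of all peaks past 1.5-fold, 68.2% at the same total density (6661 lower and 3105 higher), 58.7% with median-of-ratios scaling (5579 and 3927), 46.0% with reads at the same total (4792 and 5617) and 99.3% from reads without scaling (39780 and 276). At a fold of 2, 1748 peaks were lower and 319 higher. Relative to the median of all peaks, the Bvht sum was -0.72 with median-of-ratios scaling, where that median is 0. The median of the cardiac lineage genes was -0.032 with promoter peaks only, beside -0.025 for all genes. With median-of-ratios scaling it was 0.21 beside 0.043 for all genes, and at first 0.073 beside -0.093. That scaling moves every gene and not this list alone. The median of the miR-143 and miR-145 target genes was 0.23 with promoter peaks only, beside -0.025 for all genes. The cause of the shifts with promoter peaks only was not tested. No paired analysis was possible because each condition has 1 library, and for the same reason no library could be left out. Depth limits single peaks: the locus peaks held between 62 and 474 reads over both libraries.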
